A study of Rattus norvegicus with 6 samples.

Results

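The 83 genes described here encode the proteins of the cytosolic ribosome, 52 of the large and 31 of the small subunit, among 15645 genes that could be named on the array. They were taken by symbol (Rpl or Rps with a digit, Rplp0, Rplp1, Rplp2 and Rpsa, without S6 kinases and pseudogenes) and were represented by 243 probes. Messenger RNA was measured in renal cortex of 6 male Sprague-Dawley rats, bought at 5 weeks of age, on 1-colour Agilent arrays. Corn oil was given for 4 weeks to 3 rats (vehicle), and the other 3 received the nitrosamine N,N'-dinitrosopentamethylenetetramine (DNPT) over the same period, 200 mg/kg/day. Strain and basal diet were common to both groups, there was 1 dose and 1 time, and the labels describe 6 separate animals. The vehicle arrays were all on slide 1, read on scan day 1, together with DNPT replicate 1, whereas slide 2, read on scan day 2, held DNPT replicates 2 and 3. Levels are log2 signals relative to the 75th percentile of each array. A change is the DNPT level minus the vehicle level, given with its standard error (SE), and means are ± SD with n = 3 rats per group.

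A ribosome has a small subunit, which reads the messenger RNA, and a large subunit, which joins amino acids and passes the chain out through a tunnel. Each subunit is a core of ribosomal RNA with 1 copy of most of its proteins, so that cells need the proteins in matched amounts. Many of these messenger RNAs begin with a run of pyrimidines called a terminal oligopyrimidine (TOP) tract, through which the growth kinase mTORC1 controls their translation. Ribosomal proteins are made in all cell types of the kidney, so a level in a piece of cortex is a sum over many cells. In such bulk samples, fewer cells of a type and less RNA per cell cannot be told apart.

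The stretch around the annotated start is shown for 6 of these genes, because the TOP tract is the sequence feature the family is known for and all 6 were picked among members that hold CTTTC. Rpl35a had the largest change of all members, Rps27 the largest of the small subunit, and Rpl19 a change of -0.03. Rplp1, Rpl35 and Rpl31 lay between them. The windows run from 30 bases before to 20 bases after the start, from RefSeq on build GRCr8, and capitals mark each CTTTC.
Rpl35a, chr11:81235002-81235051, minus strand: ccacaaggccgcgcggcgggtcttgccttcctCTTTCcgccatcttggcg
Rps27, chr2:177964587-177964636, minus strand: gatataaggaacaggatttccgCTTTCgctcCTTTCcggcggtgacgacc
Rplp1, chr8:71290853-71290902, minus strand: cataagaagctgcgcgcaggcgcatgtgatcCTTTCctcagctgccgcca
Rpl35, chr3:43165902-43165951, minus strand: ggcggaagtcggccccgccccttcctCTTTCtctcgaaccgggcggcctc
Rpl31, chr9:49143081-49143130, plus strand: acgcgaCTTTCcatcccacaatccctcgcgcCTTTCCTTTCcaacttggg
Rpl19, chr10:83519034-83519083, plus strand: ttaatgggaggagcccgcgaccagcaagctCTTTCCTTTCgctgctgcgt

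Of the 83 members, 65 had a single promoter entry of 300 bases in the RefSeq table. CTTTC, searched on the sense strand from 10 bases before to 25 bases after the start, was present in 26 of them (40.0%), 16 of the large and 10 of the small subunit, against 4.17% of the 24206 promoters of all genes. CGGAAG, the core bound by ETS factors, was searched on both strands over all 300 bases and was present in 36 members (55.4%), against 17.8% of all promoters. None of the motifs searched contains another. TATAAA on both strands was present in 7 members (10.8%; 14.3% of all) and CACGTG, the E-box bound by Myc, in 5 (7.69%; 6.74% of all). The median change was 0.16 in the 26 tested members with CTTTC near the start and 0.20 in the 37 tested members without it. For CGGAAG these medians were 0.19 with it (35 genes) and 0.16 without it (28 genes). A match is a description of these letters and not evidence of a bound factor.

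Signals of ribosomal protein genes were slightly higher on average in DNPT rats, in both subunits alike, and no single gene passed the test. Of the 83 genes, 81 were well above background and were tested. Their changes were positive in 77 and negative in 4, with a median of 0.18 (1.14-fold), quartiles of 0.13 and 0.23, and a range from -0.34 to 0.44. Across all 34915 features tested the median change was 0.01, and 51.9% were positive. limma with Benjamini-Hochberg adjustment called 0 members (adjusted p from 0.383 to 0.99), and it called 0.0% of all features. The median SE of a member was 0.10, beside the median change of 0.18. An unadjusted p under 0.05 was reached by 12 members, all higher, where 5.95% of all features reached it on the higher side and 6.16% on the lower side. That number was 44 without DNPT replicate 1, but 2 when DNPT replicate 2 was left out and 1 when DNPT replicate 3 was. Leaving out vehicle replicate 1, 2 or 3 gave 3, 0 and 3.

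The groups did not overlap in 39 members, 26 of the large and 13 of the small subunit, with DNPT higher in each, and 0 members had DNPT wholly lower. Over all features these shares were 11.9% above and 8.32% below. The members gave some of the strongest signals on the array, and 77 of the 81 fell in the brightest of 10 equal bins of features by signal. In that bin the median change was 0.11, 76.3% of changes were positive, 28.6% of features had DNPT wholly above vehicle and 11.0% reached an unadjusted p under 0.05 on the higher side. From the dimmest to the brightest bin the median change went from -0.15 to 0.11, and the part of this trend in the members' values was not tested. With quantile normalization 65 members were positive in place of 77, 14 in place of 39 had groups that did not overlap, and the medians were 0.06 (large) and 0.05 (small). The direction of both medians was positive under all the settings run.

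**Figure D1:**
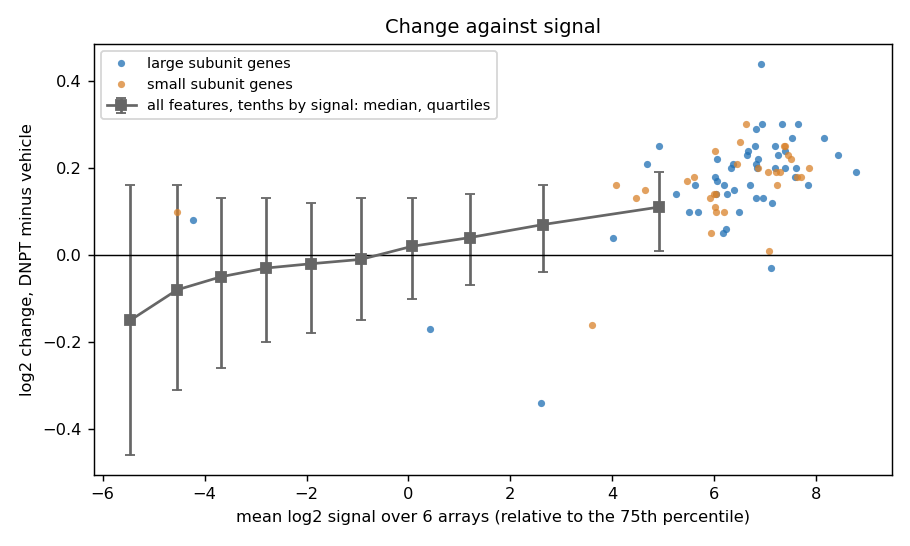
The horizontal axis is the mean log2 signal over 6 arrays relative to the 75th percentile and the vertical axis is the log2 change, DNPT minus vehicle. Grey squares and bars are medians and quartiles of all features in 10 bins by signal, which run from -0.15 to 0.11, and coloured points are the 81 ribosomal protein genes, of which 77 lie in the brightest bin.

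The shift differed between the DNPT rats. Relative to the mean of the vehicle rats, DNPT replicate 1 had a large subunit median of 0.08 and a small subunit median of 0.05. These were 0.22 and 0.19 for DNPT replicate 2, and 0.28 and 0.30 for DNPT replicate 3. The 3 vehicle rats lay between -0.01 and 0.02 for both subunits. DNPT replicate 1 was above all vehicle values in 44 of the 81 genes, replicate 2 in 72 and replicate 3 in 73, and DNPT replicate 1 was the lowest DNPT rat in 63 genes. These counts by rat were not taken over all features, so they cannot set this family apart from other genes. In 73 of the 81 genes the SD was larger among DNPT rats (median 0.129) than among vehicle rats (median 0.049). For all features these median SDs were 0.175 and 0.135, and in the brightest bin 0.108 and 0.076. The SD was also larger among DNPT rats in 21389 of all 34915 features, and in 2257 of the 3492 in the brightest bin.

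The smaller shift belongs to the only DNPT array on slide 1. With slide as a block, where only DNPT replicate 1 is compared with the 3 vehicle rats, the medians were 0.08 (large) and 0.05 (small), 70 of 81 changes were positive and 1 member reached an unadjusted p under 0.05. Slide 2 holds no vehicle array, so for DNPT replicates 2 and 3 slide, scan day and rat cannot be told apart. In the brightest bin of features DNPT replicate 1 was also the lowest DNPT array, with a median of 0.05 against 0.14 in each of replicates 2 and 3. In those 2 rats the ribosomal protein medians were above that level.

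**Figure D2:**
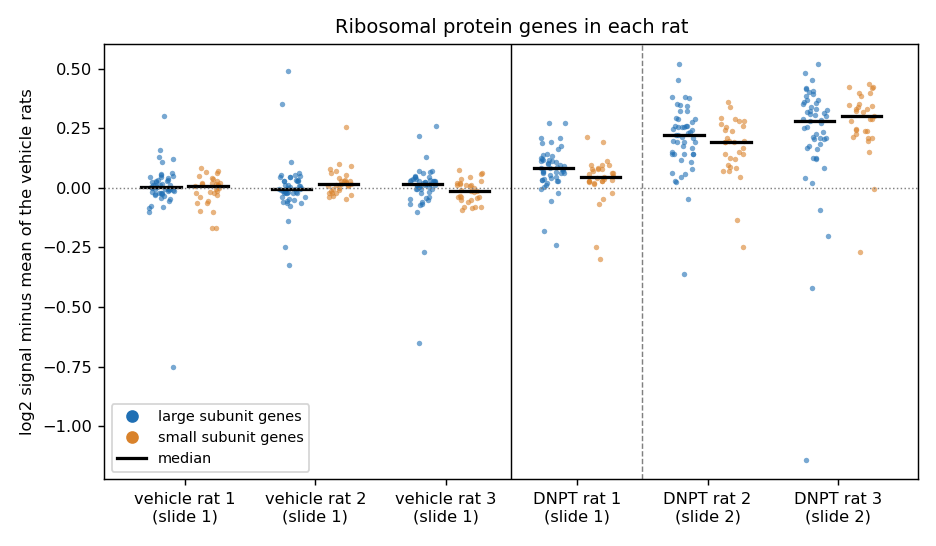
Each point is 1 ribosomal protein gene in 1 rat, as log2 signal minus the mean of the vehicle rats, for the large (blue) and the small (orange) subunit, with black bars for medians. Vehicle medians lie between -0.01 and 0.02, DNPT replicate 1 at 0.08 and 0.05, and DNPT replicates 2 and 3, to the right of the dashed line that separates the slides, between 0.19 and 0.30.

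The subunits had similar changes. The large subunit had 47 positive and 3 negative changes with a median of 0.19 (1.14-fold), and the small subunit 30 positive and 1 negative with a median of 0.18 (1.13-fold). The difference of the 2 medians was 0.01. In single rats the large minus small difference was 0.03 in DNPT replicates 1 and 2, -0.02 in DNPT replicate 3 and between -0.02 and 0.03 in the vehicle rats, so the groups overlapped. Without DNPT replicate 3 the small subunit median was 0.10, and the large subunit median was then 0.15. No p is given for these medians, because they are scores over a chosen list.

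**Figure D3:**
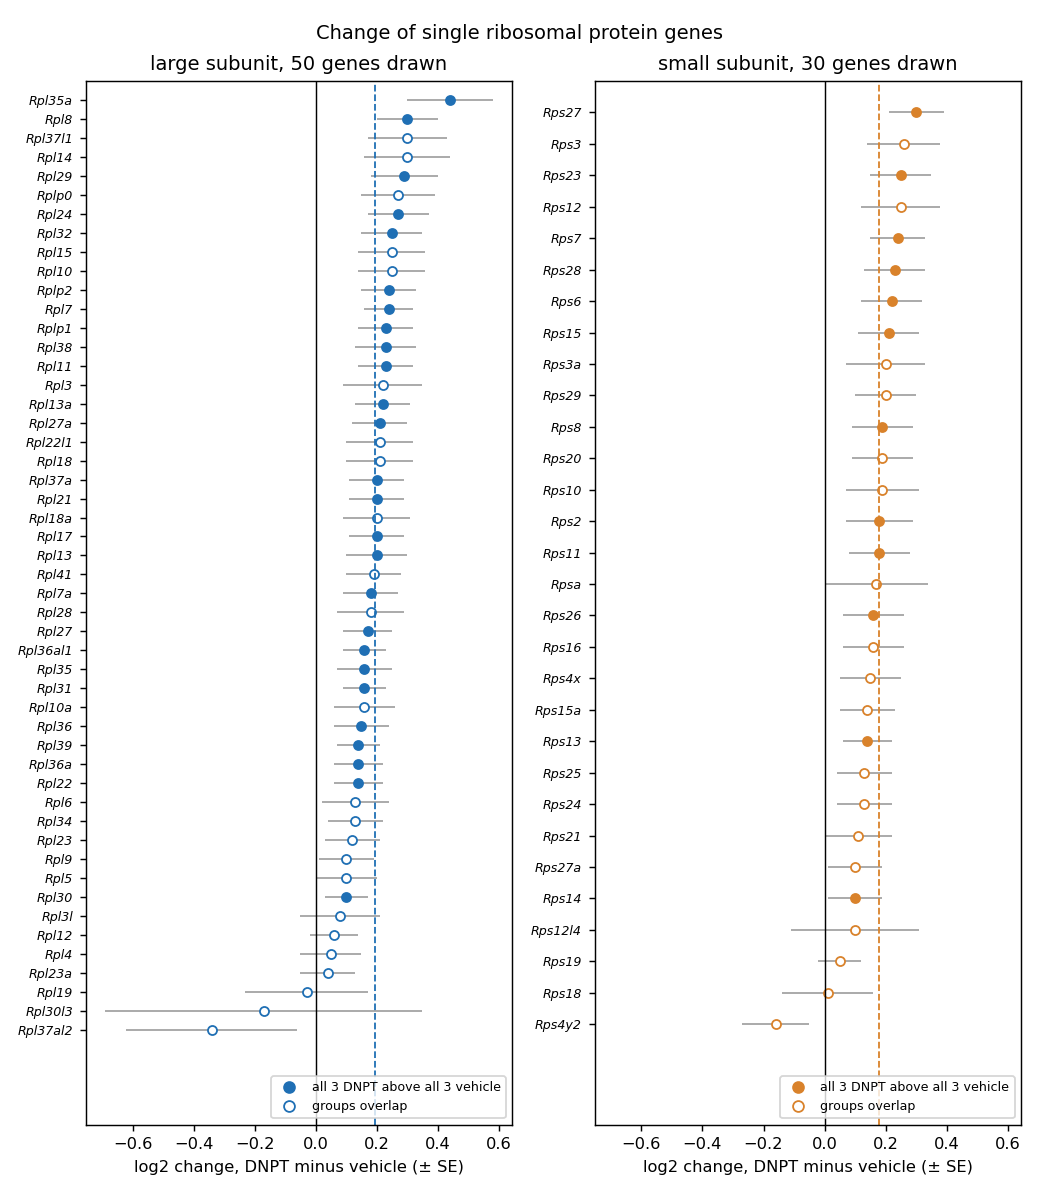
Each row is 1 gene, with its log2 change (DNPT minus vehicle) as a point and its SE as a bar, in the large (left) and small (right) subunit. All 50 large subunit genes and 30 of the 31 small subunit genes tested are drawn, and filled points are 26 of the 26 and 12 of the 13 with DNPT wholly above vehicle, and dashed lines mark the medians of 0.19 and 0.18 over all tested members.

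Among large subunit genes Rpl35a, whose loss in humans causes Diamond-Blackfan anemia, had the largest change. Its signals were 6.82, 6.45 and 6.83 in the vehicle rats and 6.97, 7.22 and 7.22 in the DNPT rats, a change of 0.44 (SE 0.14, adjusted p = 0.393). The groups did not overlap, but vehicle replicate 2 was far below the other vehicle rats, and the other 4 probes of the gene had changes from -0.12 to 0.23, with the mean of its probes at 0.14. Rpl8, a core protein near the peptidyl transferase centre, was at 7.53, 7.45 and 7.48 in vehicle rats and at 7.65, 7.83 and 7.90 in DNPT rats, a change of 0.30 (SE 0.10, adjusted p = 0.385). Rpl7, another protein of the large subunit, was at 6.54, 6.55 and 6.55 and at 6.72, 6.80 and 6.86, a change of 0.24 (SE 0.08, adjusted p = 0.389). The SD among vehicle rats was 0.01 in Rpl7, and each DNPT rat was above them. Rpl24 (0.27, SE 0.10) and Rpl29 (0.29, SE 0.11) were other genes with an unadjusted p under 0.05, and neither passed after adjustment (adjusted p = 0.402 and 0.409). The other 4 probes of Rpl29 had changes from 0.05 to 0.14, and the mean of its probes was at 0.14.

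The stalk of the large subunit, which recruits the elongation factors, is built from Rplp0, Rplp1 and Rplp2. Rplp2 was at 7.27, 7.26 and 7.31 in vehicle rats and at 7.40, 7.60 and 7.56 in DNPT rats, a change of 0.24 (SE 0.09, adjusted p = 0.400). Rplp1 was at 8.35, 8.27 and 8.36 and at 8.44, 8.62 and 8.60, a change of 0.23 (SE 0.09, adjusted p = 0.409). In both genes the DNPT rats were all above the vehicle rats, with DNPT replicate 1 the nearest. Rplp0, the base of the stalk, was at 8.01, 8.0 and 8.06 in vehicle rats and at 8.06, 8.40 and 8.41 in DNPT rats, a change of 0.27 (SE 0.12, adjusted p = 0.43). DNPT replicate 1 lay within the vehicle range for Rplp0, so this change rests on the 2 arrays of slide 2. Another bright probe of Rplp0 had a change of 0.31, and a dim probe had a change of -0.02.

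Rpl5 and Rpl11 form a particle with 5S ribosomal RNA that can also bind Mdm2, the ubiquitin ligase of p53. Rpl11 was at 6.53, 6.51 and 6.55 in vehicle rats and at 6.67, 6.76 and 6.86 in DNPT rats, a change of 0.23 (SE 0.09, adjusted p = 0.401). Rpl5 was at 5.42, 5.50 and 5.48 and at 5.59, 5.42 and 5.68, a change of 0.10 (SE 0.10, adjusted p = 0.661). Its other probes had changes from 0.16 to 0.32, and the mean of its probes was at 0.18. The groups overlapped for Rpl5, where DNPT replicate 2 was as low as the lowest vehicle rat. Rpl3, which helps to shape the peptidyl transferase centre, had a change of 0.22 (SE 0.13), with DNPT replicate 1 inside the vehicle range and replicate 3 the highest at 6.40. Rpl41, the shortest ribosomal protein, gave the brightest probe of the family, at 8.70 ± 0.07 in vehicle and 8.89 ± 0.11 in DNPT rats, a change of 0.19 (SE 0.09). Rpl39, a short protein of the exit tunnel, was at 6.18 ± 0.04 and 6.32 ± 0.02, with no overlap of the groups and a change of 0.14 (SE 0.07, adjusted p = 0.455).

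In the small subunit Rps27, a zinc finger protein, had the largest change. Its signals were 6.49, 6.44 and 6.48 in vehicle rats and 6.66, 6.75 and 6.89 in DNPT rats, a change of 0.30 (SE 0.09, adjusted p = 0.383), and its 3 probes ranged from 0.23 to 0.30. All DNPT rats were above all vehicle rats, and the change in DNPT replicate 1 alone was 0.19. Rps7, which takes part in the processing of ribosomal RNA, was at 5.92, 5.90 and 5.86 and at 5.99, 6.18 and 6.24, a change of 0.24 (SE 0.09, adjusted p = 0.41). Rps23, a protein of the decoding centre, was at 7.29, 7.24 and 7.29 and at 7.37, 7.54 and 7.67, a change of 0.25 (SE 0.10, adjusted p = 0.413), while 1 of its other probes was at -0.05 and the mean of its probes at 0.13. Rps28 had a change of 0.23 (SE 0.10, adjusted p = 0.421). None of these genes had overlapping groups.

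Rps6, the substrate of the S6 kinases, was at 7.40, 7.38 and 7.42 in vehicle rats and at 7.47, 7.66 and 7.73 in DNPT rats, a change of 0.22 (SE 0.10, adjusted p = 0.422). The groups did not overlap, and its 3 probes lay between 0.16 and 0.22. Rps3, which lines the channel where messenger RNA enters, had a change of 0.26 (SE 0.12) with overlapping groups. Rpsa, also known as the laminin receptor, was at 5.21, 5.47 and 5.45 and at 5.59, 5.24 and 5.81, a change of 0.17 (SE 0.17, adjusted p = 0.677), and here DNPT replicate 2 was among the low samples. Rps19, the gene most often mutated in Diamond-Blackfan anemia, was at 5.91 ± 0.01 and 5.97 ± 0.05, a change of 0.05 (SE 0.07). Its other 3 probes had changes between 0.20 and 0.40. Bright small subunit probes included those of Rps29 (0.20, SE 0.10) and Rps2 (0.18, SE 0.11), whose adjusted p-values were 0.454 and 0.501.

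Several members are used as reference genes for quantitative PCR. Rps18 was at 7.10, 7.07 and 7.07 in vehicle rats and at 6.78, 7.15 and 7.32 in DNPT rats, a change of 0.01 (SE 0.15, adjusted p = 0.99). The vehicle rats were nearly identical, while the DNPT rats lay on both sides of them. Rpl13a was at 6.73, 6.75 and 6.78 and at 6.85, 7.0 and 7.08, a change of 0.22 (SE 0.09, adjusted p = 0.412). Rpl32 was at 6.65, 6.70 and 6.67 and at 6.79, 6.93 and 7.08, a change of 0.25 (SE 0.10, adjusted p = 0.408). All DNPT rats were above all vehicle rats in Rpl13a and Rpl32, and with quantile normalization these changes were 0.07 and 0.11. Rpl19, another such gene, was at 7.24, 6.81 and 7.35 and at 6.95, 7.41 and 6.93, with a wide spread in both groups and a change of -0.03 (SE 0.20). Its other 3 probes had changes of 0.08, 0.19 and 0.27, and the mean of its probes was at 0.13. The sign also turned with array weights (0.08) and without vehicle replicate 1 (0.02), vehicle replicate 3 (0.07), DNPT replicate 1 (0.04) or DNPT replicate 3 (0.05).

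Members whose symbols mark a copy or paralogue were looked at apart. Of 10 such genes, 8 were tested, 5 with positive and 3 with negative changes (median 0.09), while 72 of the 73 other members were positive (median 0.19). Over all features 51.9% of changes were positive, and in the brightest bin 76.3%. The members outside the brightest bin, Rpl37al2, Rpl30l3, Rpl3l and Rps12l4, were all copies. They lay in bins with median changes from -0.08 to 0.07, so being a copy and having a weaker signal go together for these genes. The other tested copies, Rpl37l1 (0.30, SE 0.13), Rpl22l1 (0.21), Rpl36al1 (0.16) and Rps4y2 (-0.16), were in the brightest bin. This division into copies and other members was made after the values were seen and was not tested. The lowest change of all was in Rpl37al2, at 3.08, 3.13 and 2.13 in vehicle rats and 2.54, 2.42 and 2.36 in DNPT rats (-0.34, SE 0.28), where vehicle replicate 3 was below the DNPT rats. Rpl30l3 ranged from -0.23 to 1.01 in vehicle and from -0.62 to 0.87 in DNPT rats (-0.17, SE 0.52). Rpl3l, the heart and skeletal muscle paralogue of Rpl3, was dim at -4.27 ± 0.23 and -4.19 ± 0.05 (0.08, SE 0.13), and Rps12l4 was at -4.60 ± 0.22 and -4.50 ± 0.34. Rpl27l2 was not well above background on any array and Rpl39l1 on 1 array, and neither was tested.

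Paralogue pairs could be set side by side by their changes. Rpl22 had a change of 0.14 (SE 0.08) and Rpl22l1 of 0.21 (SE 0.11), although the other 3 probes of Rpl22l1 were all below 0. Rpl36a had a change of 0.14 (SE 0.08) and Rpl36al1 of 0.16 (SE 0.07), and in both the DNPT rats were all above the vehicle rats. Rps4x, the X-linked form, had a change of 0.15 (SE 0.10). Rps4y2 was at 3.69 ± 0.09 in vehicle and 3.52 ± 0.17 in DNPT rats (-0.16, SE 0.11), while its other probe had a change of 0.47 and the mean of the probes was at 0.15. The RefSeq table of rat genes lists 883 ribosomal protein entries with a pseudogene biotype, and how far processed copies or close paralogues bind these probes was not tested.

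Most genes had several probes, which gives a repeat of the measurement on the same RNA. Of the 239 probes tested, 220 (92.1%) had a positive change, with a median of 0.16 in each subunit, and 0 were called. Positive changes made up 51.9% of all features and 76.3% of the brightest bin, and the share over all single probes is not given here. Of 72 genes with more than 1 tested probe, 58 had positive changes in all their probes, 14 were mixed and 0 were negative in all. The median difference between a gene's lowest and highest probe was 0.10, and 0 genes had probes that differed by more than 1. The probe with the most signal had a median change of 0.19 in these genes, and their other 158 probes had a median of 0.15. Rps26 had the widest spread, 0.16 for its bright probe and -0.66 for a dim one, and Rpl13 probes ran from -0.20 to 0.33. No member probe was saturated on any array (0 of 243).

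**Figure D4:**
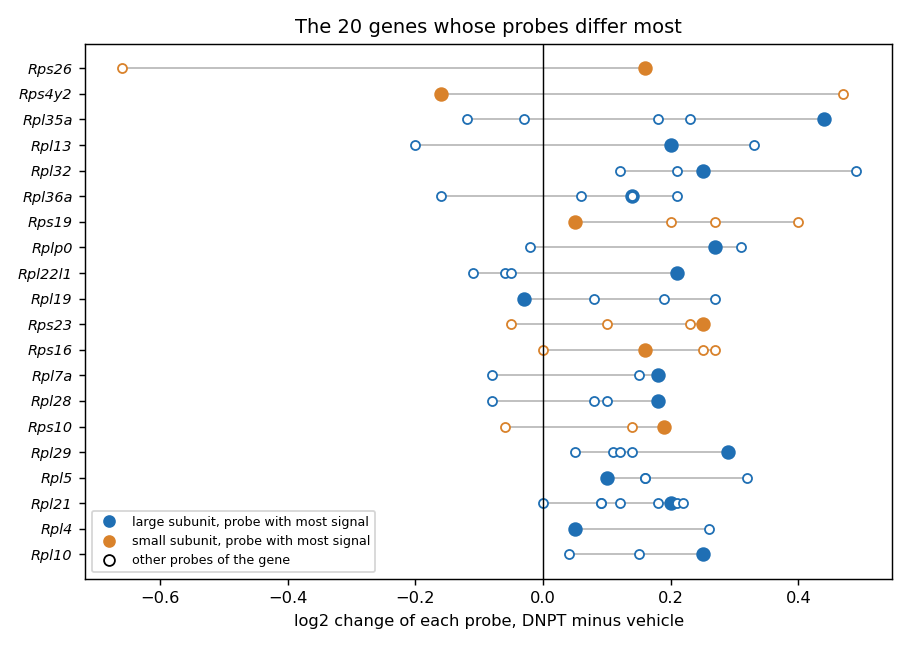
Each row is 1 of the 20 genes whose probes differed most, and each point is the log2 change (DNPT minus vehicle) of 1 probe, filled for the probe with the most signal, which stands for the gene. The probes of Rps26 span from -0.66 to 0.16 and those of Rpl35a from -0.12 to 0.44.

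Ribosomal proteins outside the symbol rule had positive changes too, and none was called. Fau, which encodes a small subunit protein fused to a ubiquitin-like domain, was at 7.40 ± 0.04 in vehicle and 7.62 ± 0.15 in DNPT rats (0.22, SE 0.10). Rack1, a scaffold on the small subunit, had a change of 0.05 (SE 0.08). Rps27a, the ubiquitin fusion among the members, had a change of 0.10 (SE 0.09). Mitochondrial ribosomal proteins, which serve a separate ribosome, had 58 of 67 positive changes with a median of 0.11, and DNPT wholly above vehicle in 25 genes. These are 86.6% and 37.3% of the genes, beside 51.9% and 11.9% of all features and 76.3% and 28.6% of the brightest bin, whose median was also 0.11. Their medians in DNPT replicates 1, 2 and 3 were 0.10, 0.11 and 0.18. The difference between the 2 families was not tested.

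None of the other genes of translation and ribosome assembly was called. Over all named genes 57.0% of changes were positive, with a median of 0.04, and the shares below are to be read beside that and the 76.3% of the brightest bin. Of 18 other genes with TOP messages 16 were positive (88.9%, median 0.13), among them Eif2s3, a subunit of the factor that brings the initiator tRNA, at 2.80 ± 0.08 and 3.33 ± 0.18 (0.53, SE 0.12, adjusted p = 0.329) and the elongation factor Eef1g (0.26, SE 0.13). Of 22 initiation factors 14 were positive (63.6%, median 0.05), with Eif2s2 at 0.27 (SE 0.09) and Eif4g2, a noncanonical scaffold, at -0.22 (SE 0.08). Ribosome assembly genes had 34 of 43 positive (79.1%, median 0.10), including Nip7 (0.22, SE 0.08), and Nob1, which trims the RNA of the small subunit, was at -0.24 (SE 0.10). Genes of RNA polymerases I and III, which make ribosomal and transfer RNA, had 21 of 25 positive (84.0%, median 0.11), with Polr3g at 0.44 (SE 0.14).

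In the mTORC1 and S6 kinase list 22 of 27 genes were positive (81.5%, median 0.09). Rptor, which brings substrates to mTORC1, was at 2.57, 2.63 and 2.70 in vehicle rats and at 2.88, 3.18 and 3.18 in DNPT rats (0.44, SE 0.11, adjusted p = 0.353). Rps6kb2, an S6 kinase, was at 2.96 ± 0.06 and 3.24 ± 0.06 (0.27, SE 0.08). Ddit4, an inhibitor of mTORC1 induced by stress and glucocorticoids, was at 2.16, 2.10 and 1.92 and at 1.36, 1.40 and 1.61 (-0.60, SE 0.11, adjusted p = 0.294). In these 3 genes, picked as those with the smallest p of the list, the groups did not overlap, but no member of the list passed the test. Of the 27 genes 9 (33.3%) had DNPT wholly above vehicle and 2 (7.41%) wholly below. Over all features these shares were 11.9% and 8.32%, and in the brightest bin 28.6% of features were wholly above. Of 8 genes tested on the link from ribosomal stress through Mdm2 to p53, 3 were positive (37.5%) and 5 negative. Their median was -0.06, with quartiles of -0.41 and 0.06. DNPT was wholly above vehicle in 2 of them (25.0%) and wholly below in 2 (25.0%).

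Markers of the labelled tissue were bright, with the summed linear signal of 10 proximal tubule genes, as multiples of the 75th percentile, between 2420 and 2620 in vehicle and between 2740 and 3150 in DNPT rats. The groups also did not overlap for the sums of 8 erythroid genes (of 10 listed; 544 to 670 against 702 to 788), of 7 endothelial genes (72.0 to 75.6 against 75.8 to 92.2) and of 10 of 12 lymphocyte genes, which were lower (5.57 to 6.30 against 4.67 to 5.32). Changes of single genes were positive in 9 of the 10 proximal tubule, 6 of the 8 erythroid and 5 of the 7 endothelial genes (endothelial median 0.09). Among the 10 lymphocyte genes 2 were positive. Over all features 51.9% were positive, and in the brightest bin 76.3%. Among single features DNPT was wholly above vehicle in 11.9% (28.6% in the brightest bin) and wholly below in 8.32%. Sums of the other 9 marker lists overlapped. The liver plasma protein sum was 36.1 in DNPT replicate 3 and between 4.14 and 7.36 in all other rats. Of the adrenal markers, Cyp11b1, Cyp11b2 and Star were not well above background. The 4 adrenal genes tested summed to 4.25 to 5.13 in vehicle and 2.81 to 4.82 in DNPT rats. Pvalb, Cd163, Lep and Cnn1 were also not well above background, while other genes of their lists were tested. The 5 perirenal fat genes tested summed to 1.82 to 2.21 in vehicle and 1.65 to 1.85 in DNPT rats. The part of these cells in the ribosomal protein values was not tested.

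**Figure D5:**
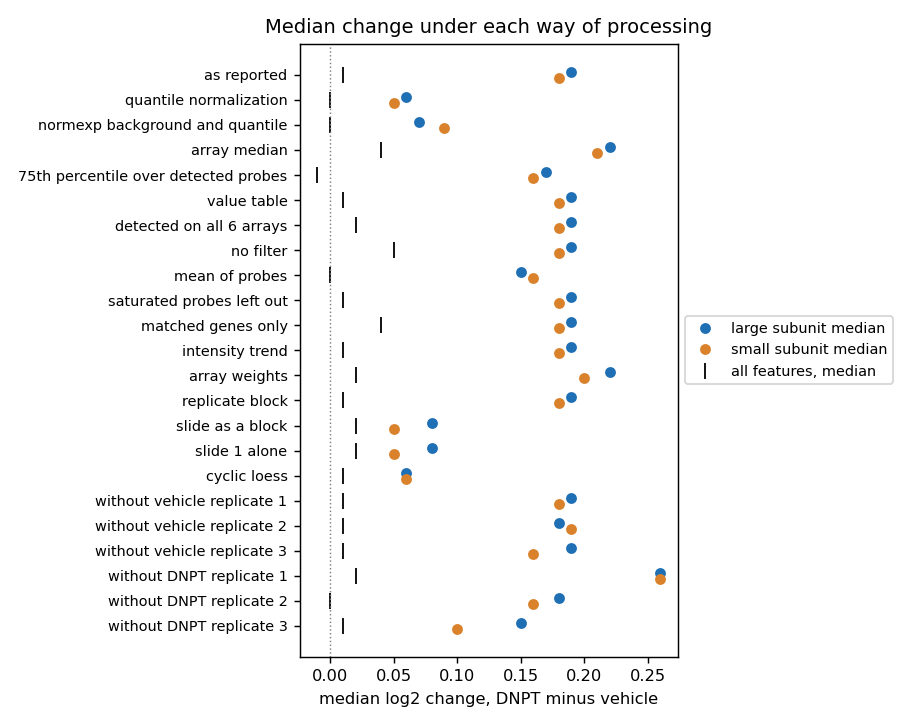
Each row is 1 way of processing, with the median log2 change (DNPT minus vehicle) of the large (blue) and small (orange) subunit genes and, as a black tick, that of all features. All medians of both subunits are positive, from 0.05 to 0.26, and the smallest come from quantile normalization, normexp with quantile (large subunit), cyclic loess and slide 1.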

How the data were processed

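Cy3-labelled cRNA was made from the RNA of each rat, per the labels, and 1 array was used per rat. The submitters' processing notes name Agilent Feature Extraction 10.7. The column used is the processed signal of the deposited scanner output, a linear intensity for each spot. In the authors' value table each number is a linear ratio of that signal to 1 constant per array, close to its 75th percentile (100.0% of values of at least 1 matched within 0.5%), not centred by gene, with column medians of 0.112 to 0.116. The software step behind it: not given in the sources used here.

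Control spots and 113 outlier values were left out, and log2 of the processed signal minus each array's 75th percentile was taken. Of 61537 probes, 42116 to 45167 per array were well above background. Precision is limited by there being 6 arrays. The files used here have no gene name column, so genes were named through RefSeq accessions (GRCr8 table, names only): 28206 probes matched 1 gene and 33331 none. A probe was tested if well above background on at least 3 of 6 arrays with at least 2 values per group. The probe with the most signal stood for a gene, and unnamed probes stood alone, 34915 features in all. The test was two-sided, from limma 3.58.1 (lmFit, then eBayes; R 4.3.3), with p-values adjusted over all features by Benjamini-Hochberg, and was checked on simulated data. Plots were made with Python 3.11.15 and matplotlib 3.10.9.

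The members and lists were chosen with earlier results of these data known. Named genes were, per subunit, the 4 higher and up to 4 lower with the smallest p (3 lower genes in the large and 1 in the small subunit), the 3 brightest and the 3 dimmest, and a set list of stalk, 5S particle, reference and paralogue genes. Other named genes were chosen after their values were seen. Signal was not compared between probes as abundance. Alternatives were other normalizations, background correction (normexp, offset 50, on the median signal because a mean signal column was not used here), filters, probe rules, variance models, blocks and samples left out. Cyclic loess, counts of positive changes, of unadjusted p and of groups without overlap were added after seeing the data. Single values of some genes are not reported here.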

Additional observations from a re-analysis of the deposited data

How the results depend on the processing

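The count of members called stayed at 0 under all 22 alternatives (621 features were called in all without DNPT replicate 1, and none was a member). The medians, 0.19 for the large and 0.18 for the small subunit, moved by more than the spread between rats with quantile normalization (0.06 and 0.05), cyclic loess (0.06 and 0.06), and slide as a block or slide 1 alone (0.08 and 0.05 in each). With normexp the large median was 0.07 and the large minus small difference -0.02 in place of 0.01. The slide values rest on DNPT replicate 1, and the cause of the other moves was not tested. Leaving out 1 rat gave medians of 0.15 to 0.26 (large) and 0.10 to 0.26 (small), differences of -0.01 to 0.05, and 75 to 78 positive members. Unadjusted p under 0.05 was reached by 12 members as reported, 0 to 44 with 1 rat left out, 0 with quantile normalization, 0 with cyclic loess, 4 with normexp, 7 with the percentile over detected probes, 5 with the mean of probes, 38 with an intensity trend, 35 with array weights, and 1 with slide as a block or slide 1 alone. It was 1 with the replicate number as a block. Deviations of same-numbered rats correlated at -0.177, -0.059 and -0.179, and those of differently numbered rats between -0.196 and 0.333. These values give no sign that the numbers pair the rats, but with 3 rats a group they cannot exclude it. Groups without overlap were 39 members as reported, 14 with quantile normalization, 20 with normexp, 11 with cyclic loess, 50 with the array median, 41 with the mean of probes and 36 to 40 under the others run on all rats. Of 1012 values of 46 named members under the alternatives, 49 changed sign and 0 had an adjusted p under 0.05. With 3 rats a group, the median SE of 0.10 limits what single genes can show.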
